A study of Mus musculus with 30 samples.

Results

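RNA bound to tagged ribosomes of noradrenergic neurons was compared with total RNA of the same hindbrains, on 15 of the series' 30 bead arrays. These were the 8 arrays of translating ribosome affinity purification (TRAP) from the Slc6a2 line and its 7 total RNA arrays, picked by the line and RNA type in the labels and not by any measured value. The other 15 arrays belong to a serotonergic line (Slc6a4) and serve here for an independent scale of abundance and for a test of the difference between lines. All mice of the 15 arrays were adults of 6 to 12 weeks on a B6;FVB background with the transgene Tg(Slc6a2-EGFP/Rpl10a)JD1538Jdd, a BAC construct that places EGFP-tagged ribosomal protein L10a under control of the noradrenaline transporter gene. The total RNA mice carried the transgene too, so no group lacked it, and the cells marked are those in which the transgene is active. All had an abdominal temperature transponder, were singly housed at thermoneutrality and received 1 intraperitoneal injection, either lipopolysaccharide (LPS, a bacterial product that causes fever) at 100 ug per kg or its vehicle, sterile PBS, with killing later that day.

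TRAP pulls down ribosomes through the EGFP tag, and the RNA that comes with them represents what the tagged cells were translating. Noradrenergic neurons form small clusters in the pons and medulla, the locus coeruleus among them, and send long axons to most of the brain. They make noradrenaline from dopamine, release it in arousal and stress, and take it back up through the transporter that Slc6a2 encodes. Whole hindbrain lysate contains many other neurons and glia besides, and the comparison asks which transcripts the ribosome-bound fraction holds above or below this mixture. In such bulk RNA, fewer cells of a type and less RNA per cell cannot be told apart.

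Total RNA was of either of 2 kinds, an aliquot of lysate taken before the precipitation (Pre-IP, 3 arrays) or the lysate left after it (Unbound, 4 arrays). RNA had been amplified in batches numbered 1 and 2 in the labels. The TRAP arrays covered both batches, with 1 PBS female, 1 PBS male, 1 LPS female and 1 LPS male in each. The Pre-IP arrays, from a PBS female, a PBS male and an LPS female, belonged to batch 1. The 4 Unbound arrays, 1 of each sex and treatment, belonged to batch 2. The kind of total RNA and the amplification batch therefore cannot be told apart, and each reference was set against the TRAP arrays of its own batch. Letters in the sample titles, whose meaning is not given, also differ between TRAP and total RNA and cannot be told apart from the fraction. A TRAP and a total RNA array that matched in sex, treatment and batch were treated as 1 mouse, which gave 7 mice with both fractions, the LPS male of batch 1 having TRAP alone.

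Each array held 45281 probes under manufacturer identifiers without gene names, and 0 of the identifiers matched the gene table used here. Genes, marker lists and sequences are therefore not given, and the noradrenergic identity of the TRAP RNA was not checked against Dbh, Th or other defining genes. Levels are log2 normalised intensities, and each difference is TRAP minus total RNA in log2 units, so that 1 unit is a 2-fold difference within 1 probe.

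Fewer probes were detected in TRAP than in total RNA. A probe counted as detected where its detection p-value was under 0.01. TRAP arrays had 15432 to 19101 detected probes (median 17726) and total RNA arrays 20395 to 22652 (median 22284), with no overlap between the fractions. The 100 brightest probes took 8.02% to 10.1% of the summed intensity in TRAP and 7.40% to 8.41% in total RNA. TRAP arrays also resembled each other less, with a median correlation of each array with the others of its fraction of 0.839 to 0.877 across probes, against 0.919 to 0.964 in total RNA. The array farthest from its fraction was TRAP of the batch 2 PBS male, with 15432 probes detected and the correlation of 0.839. The Unbound array of that mouse was likewise the lowest of its fraction, with 20395 probes and 0.919.

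Most probes were seen in both fractions or in neither. Of the 45281 probes, 16114 were detected on none of the 15 arrays and 11255 on all 15. Only 21 probes were detected on all 8 TRAP arrays and on no total RNA array, while 179 showed the reverse pattern. The 24493 probes detected on at least 3 arrays were tested, and 4037 (16.5%) were called higher and 4874 (19.9%) lower in TRAP, with Pre-IP and Unbound weighted equally (limma, Benjamini-Hochberg adjusted p under 0.05). Over all probes tested, TRAP lay entirely above total RNA for 1639 (6.69%) and entirely below for 1387 (5.66%).

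The median probe called higher differed by 0.97 log2 units, and the central 80% of these probes by 0.44 to 1.83. Probes called lower had a median of -1.13, with the central 80% from -1.98 to -0.56. Among called probes, 1925 were more than 2-fold higher and 2937 more than 2-fold lower. More than 4-fold differences were found for 306 probes higher in TRAP and 473 lower, and more than 16-fold for 24 higher and 3 lower. Higher probes thus outnumbered lower ones beyond 16-fold, and lower ones outnumbered higher ones beyond 2-fold. Both orders held when the fractions were normalised separately (20 and 7 beyond 16-fold, 951 and 5614 beyond 2-fold) and with median centring (24 and 1, 2339 and 2819). The median of all probes was -0.41 with separate normalisation, so its counts beyond 2-fold carry that shift. Among probes detected on all 15 arrays the order beyond 2-fold turned, with 1122 higher and 879 lower. For 49 of the 306 no total RNA array had a detected signal, and for 43 of the 473 no TRAP array had one, so that the size of these differences is a bound set by background.

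The sign of the largest differences was the same across mice, but not always their size. All 24 probes more than 16-fold higher were called over Pre-IP and over Unbound apart, had the same sign in all 7 mice and had TRAP arrays that did not overlap total RNA, as did the 3 probes more than 16-fold lower. Probes were chosen by size on these same arrays, so the counts in this paragraph describe them and are no separate support. Even so, 3 of the 24, and 18 of the 306 more than 4-fold higher, differed between the references (limma). Of the 473 more than 4-fold lower, 0 did, and of all probes tested 0.433%. ILMN_1245887, for example, was higher by 4.02 over both, by 6.59 over Pre-IP and 1.45 over Unbound, and by 1.08 to 6.92 in single mice. Of the 306 probes more than 4-fold higher, 276 had the same sign in 7 of 7 mice, 252 were called over each reference and 238 did not overlap. For the 473 probes more than 4-fold lower these counts were 384, 300 and 250. Among all 24493 probes tested, 3092 were above 0 in 7 of 7 mice and 3292 below 0. Of the same probes, 1297 were called higher over each reference and 1299 lower. TRAP lay entirely above total RNA for 6.69% and entirely below for 5.66%. Over all calls, 2756 of 4037 probes called higher were above 0 in every mouse and 2913 of 4874 called lower were below 0 in every mouse. Among the 15582 probes not called, 336 and 379 had one sign in every mouse, above and below 0.

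The 7 mice gave differences of similar spread. Between 3621 and 4836 probes per mouse were more than 2-fold higher in TRAP, and between 4294 and 5867 more than 2-fold lower, with both highest values in the PBS male of batch 2. Lower probes outnumbered higher ones in each of the 7 mice. Across probes, the differences of mice from the same batch, which also share the kind of total RNA, correlated at a mean of 0.498 (0.435 to 0.598, 9 pairs). Mice of different batches correlated at a mean of 0.398 (0.310 to 0.496, 12 pairs). Probes do not count as replicates here, and these correlations are descriptions.

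The balance of higher and lower calls depended on the scaling. Of the probes called, 45.3% were higher in TRAP, 25.8% were so when each fraction was normalised separately (2817 higher, 8108 lower), and 55.1% with median centring (4913 higher, 4010 lower). The median of all probes was -0.084 as fitted and -0.41 with separate normalisation, so that counts under the latter carry that shift. Among the 11255 probes detected on all arrays, 56.1% of calls were higher (3248 higher, 2546 lower). Leaving out the PBS male of batch 2 gave 3860 higher and 4617 lower without its TRAP array, and 3613 higher and 4330 lower without its Unbound array. Without the Pre-IP array of the PBS male, the number of lower calls was 3154.

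Differences between TRAP and total RNA were not called to depend on sex or treatment. No probe was called for a sex effect on the difference (0% of 24493, limma), and 871 had an unadjusted p under 0.05. For LPS against PBS the counts were 0 (0%) and 945. The median standard error of these terms was 0.59 log2 units, against 0.29 for the difference between TRAP and total RNA, so the counts do not show that the differences were alike in both sexes or treatments. Fitting all 30 arrays together called 3 probes for treatment and 0 for sex.

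Probes were named where the difference was the largest in its direction among probes detected on all 15 arrays, called over each reference and of one sign in 7 mice, a rule that 1037 higher and 785 lower probes met. ILMN_2922875 had levels of 12.27 to 13.04 (median 12.76) on the 8 TRAP arrays. Its Pre-IP levels were 7.73 in the PBS male, 7.83 in the LPS female and 7.74 in the PBS female. Its Unbound levels were 7.11, 7.20, 6.89 and 7.30 in the PBS female, LPS female, PBS male and LPS male. Every TRAP array stood far above every total RNA array, and both sexes and both treatments showed the same step. The difference was 5.27 (SE 0.12, 38.7-fold, limma adjusted p = 1.7e-10), with 4.54 to 5.94 in single mice. In the Slc6a4 line the probe was detected on all 8 total RNA arrays and on 4 of 7 TRAP arrays, so that its fitted difference there, -1.53 (SE 0.23), includes TRAP values at background.

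ILMN_2776034 ranged from 12.08 to 12.60 (median 12.51) in TRAP. Pre-IP levels were 7.65, 7.92 and 7.37 in the PBS male, LPS female and PBS female. Unbound levels were 7.14, 7.66, 6.42 and 7.55 in the PBS female, LPS female, PBS male and LPS male. The fractions did not overlap, and the lowest total RNA value came from the PBS male of batch 2. The difference was 4.98 (SE 0.14, 31.6-fold, limma adjusted p = 1.3e-09). It was 0.29 (SE 0.21, adjusted p = 0.28) in the Slc6a4 line, where the probe was at 8.07 ± 0.41 (SD, n = 7) in TRAP and 7.73 ± 0.73 (SD, n = 8) in total RNA.

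ILMN_2504686 had the largest fall by this rule. Its TRAP levels ran from 7.66 to 9.10 (median 8.38). Pre-IP levels were 12.55, 12.25 and 12.30 and Unbound levels 11.99, 12.28, 11.88 and 12.40, in the order of mice given above. TRAP lay below total RNA on every array, and the spread was wider in TRAP (SD 0.44, n = 8) than in total RNA (SD 0.23, n = 7). The difference was -3.88 (SE 0.15, limma adjusted p = 7.7e-09), and -4.54 (SE 0.14) in the Slc6a4 line. ILMN_2436634 was at 6.69 to 9.10 (median 7.84) in TRAP, at 12.08, 11.35 and 11.69 in Pre-IP and at 11.43, 11.88, 11.75 and 11.68 in Unbound. The fractions again did not overlap, but TRAP values varied widely between mice, the PBS female of batch 1 being lowest and the PBS male of batch 1 highest. The fall of -3.79 (SE 0.30, limma adjusted p = 3.4e-06) was also present in the Slc6a4 line, at -4.50 (SE 0.29), with the probe detected on 6 of 7 TRAP arrays there.

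**Figure D1:**
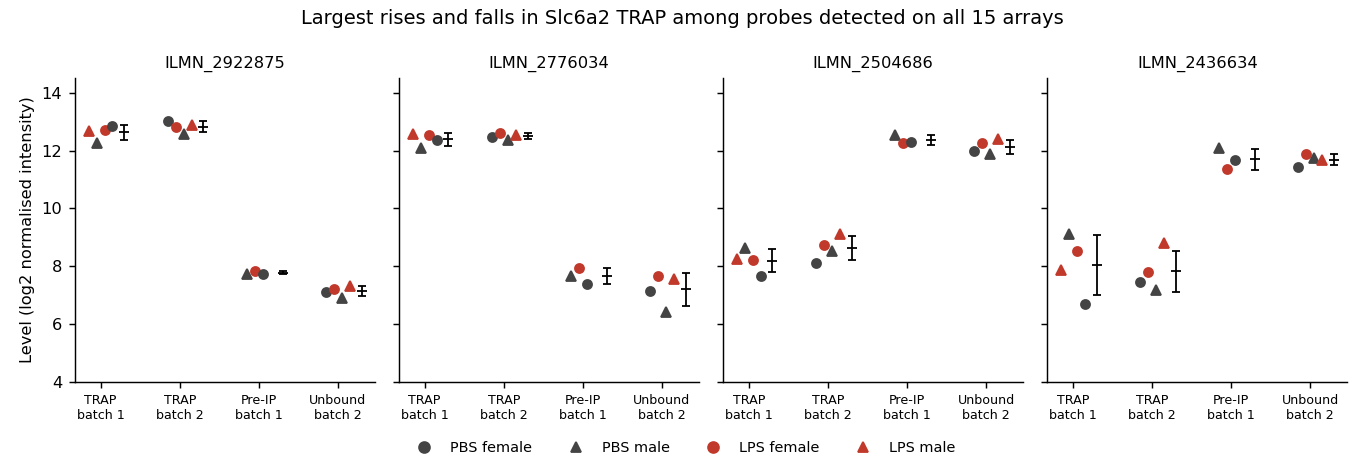
Level (log2 normalised intensity) of 4 probes on the 15 Slc6a2 arrays by fraction and amplification batch; each marker is 1 array, circles are females, triangles males, black PBS and red LPS, and the bar beside each set is mean ± SD. TRAP arrays of ILMN_2922875 lie between 12.27 and 13.04, above all total RNA arrays (6.89 to 7.83), and TRAP arrays of ILMN_2504686 between 7.66 and 9.10, below all of them (11.88 to 12.55).

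The share of probes called followed abundance. Probes were ordered by their mean level on the 8 total RNA arrays of the Slc6a4 line, which enter none of these differences, and divided into 10 equal sets (deciles). Called probes made up 26.6% of the dimmest decile, 20.5% of the next and 62.9% of the brightest, against 36.4% of all probes tested. The standard error changed along the same axis, from a median of 0.31 in the dimmest decile to 0.37 in decile 4 and 0.097 in the brightest. The median size of a called rise was 1.22 in the dimmest decile, 1.30 in decile 4 and 0.44 in the brightest. That of a called fall was -0.79 in the dimmest decile, -1.48 in decile 6 and -0.72 in the brightest.

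The balance of higher and lower calls shifted along the range. In the dimmest decile 20.9% of probes were called higher and 5.67% lower. The share of higher calls was near 12% in deciles 2 to 6, between 12.2% and 13.1%, and reached 25.4% in the brightest decile. The share of lower calls was larger in each decile than in the one before, and reached 37.5% in the brightest. From decile 3 upward, lower calls outnumbered higher ones. The climb of lower calls depended on the scaling. With median centring they made up 2.82% of the dimmest decile, 22.4% of decile 6 and 15.6% of the brightest, where 52.7% were called higher. With separate normalisation their share stayed between 33.7% and 38.4% from decile 3 upward. The brightest decile had the largest share called in either direction under both scalings, 68.2% and 66.7%.

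**Figure D2:**
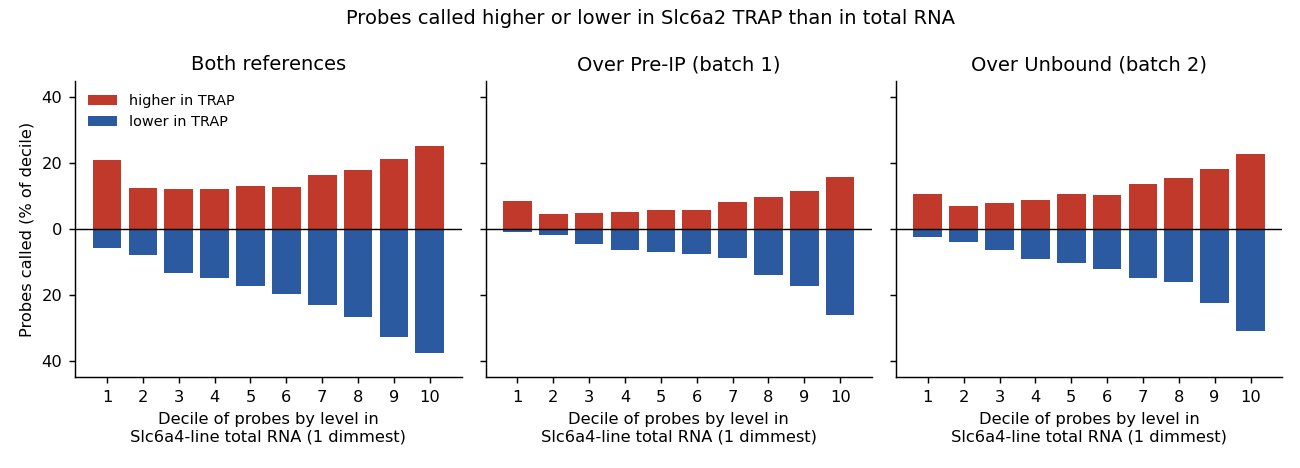
Percent of probes in each decile called higher (red, upward) or lower (blue, downward) in Slc6a2 TRAP than in total RNA by limma, with both references combined, with Pre-IP alone and with Unbound alone; deciles run from the dimmest (1) to the brightest (10) by level in Slc6a4 total RNA. Lower calls climb from 5.67% to 37.5% with both references, and the same climb is seen with each reference, but not with median centring (15.6% in the brightest decile).

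The place of large rises and falls on the range depended on the filter. Among called probes of the dimmest decile, 349 were more than 2-fold higher and 29 more than 2-fold lower. In the brightest decile these counts were 22 and 275, but 249 and 128 with median centring, which turned the order of the 2 counts. More than 4-fold rises fell from 95 probes in the dimmest decile to 1 in the brightest. More than 4-fold falls numbered 0 in the dimmest decile, 110 in decile 7 and 35 in the brightest. With separate normalisation and with median centring, more than 4-fold rises went from 64 and 110 probes in the dimmest decile to 1 and 3 in the brightest, and more than 4-fold falls were most frequent in deciles 6 (230) and 7 (101). The filter lets a dim probe in through the fraction where it is high, and of the 326 tested probes detected on no total RNA array, 318 were in the dimmest decile. The rises of that decile are therefore in part fixed by the filter. With no filter, the dimmest decile of all 45281 probes had 2 rises of more than 4-fold and a median difference of 0.038, such rises were most frequent in decile 7 (76), and the falls in decile 8 (185). With probes detected on all 15 arrays, which keeps a dim probe only where TRAP is above background too, 72 such rises were in the dimmest decile, and the falls were most frequent in the brightest (19).

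The centre of the differences shifted by less than its spread. The median difference was 0.28 in the dimmest decile, -0.22 in decile 6 and -0.10 in the brightest, while the central 80% of probes spanned -0.54 to 1.28, -1.49 to 0.94 and -1.08 to 0.50. In single mice the median of the dimmest decile was 0.12 ± 0.030 (SD, n = 7 mice) and above 0 in 7 of 7. The medians of deciles 4 to 10 were above 0 in 0 of 7 mice. These signs are not independent of the scaling or of how deciles were formed, as the median of the dimmest decile was -0.093 with separate normalisation and -0.26 when deciles were formed on the 15 arrays themselves, and that of the brightest was 0.37 with median centring.

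**Figure D3:**
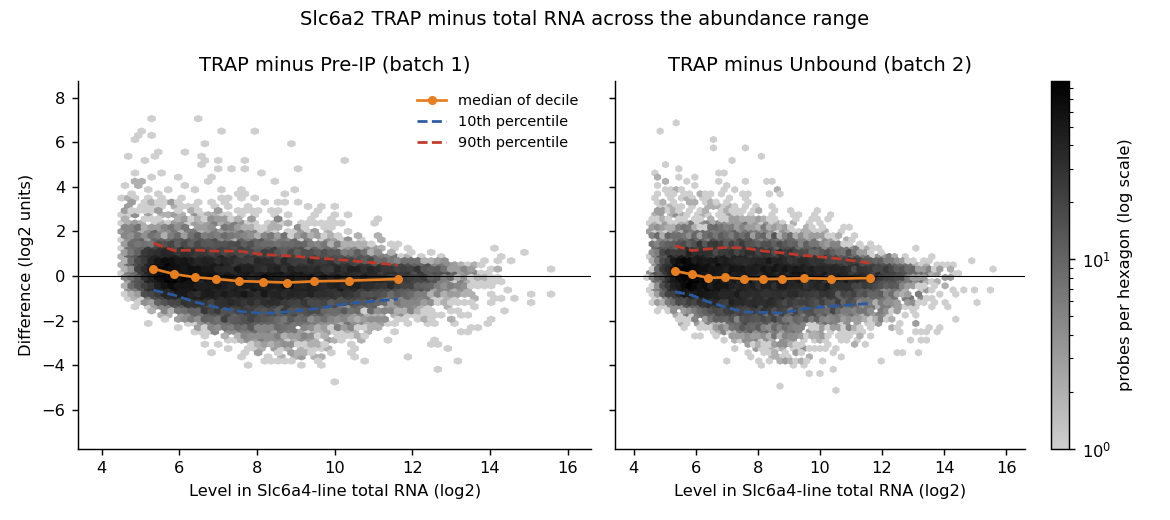
Difference between Slc6a2 TRAP and each reference (log2 units) against level in Slc6a4 total RNA (log2), with probes counted in hexagons shaded on a log scale; the orange line joins decile medians and the dashed lines the 10th and 90th percentiles. Among these probes, detected on at least 3 arrays, the medians stay between -0.29 and 0.32 over Pre-IP and between -0.14 and 0.23 over Unbound.

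With Pre-IP as the reference, 1965 probes (8.02%) were called higher in TRAP and 2313 (9.44%) lower. With Unbound they were 3075 (12.6%) higher and 3144 (12.8%) lower. The Unbound comparison had 4 arrays of total RNA against 3 and a smaller median standard error, 0.39 against 0.44, while differences were of like size (median absolute difference 0.61 and 0.58). Pre-IP calls depended on single arrays, and numbered 701 higher and 622 lower without the PBS male, 773 and 717 without the LPS female, and 1203 and 1242 without the PBS female. Unbound calls numbered 2007 higher and 1850 lower without the LPS female, and the lower calls alone moved by more than 1.5 times without the PBS female (1932) and without the LPS male (2050). With median centring 4887 probes were higher and 2388 lower over Unbound, 67.2% of the calls in place of 49.4%, and separate normalisation gave 27.5% over Pre-IP and 30.7% over Unbound.

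Each reference was set against the TRAP arrays of its own batch. The 2 differences still shared the normalisation, the estimate of spread, and the sex and treatment terms, which were fitted over both batches. They are therefore not from separate fits. Of the probes called over Pre-IP, 1297 were called higher and 1299 lower over Unbound as well, and 21 and 7 were called in the opposite direction. This is 66.0% of the 1965 and 56.2% of the 2313, and 42.2% of the 3075 and 41.3% of the 3144. By sign alone, 92.9% of the probes called higher over Pre-IP were also above 0 over Unbound, where 48.0% of all probes were. Of those called lower over Pre-IP, 93.9% were below 0 over Unbound. Differences over the references correlated across probes at 0.641 (Pearson) and 0.618 (Spearman), with 0.683 in the 5 brighter deciles and 0.591 in the 5 dimmer ones.

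Each batch was also normalised and fitted by itself, without the shared normalisation, sex and treatment terms and estimate of spread. This left 20770 probes tested in both batches. Of 1475 called higher in batch 1 (TRAP against Pre-IP), 1039 (70.4%) were called higher in batch 2 (TRAP against Unbound), where 15% of all these probes were. Of 1951 called lower in batch 1, 1166 (59.8%) were called lower in batch 2, against 16.4% of all. Opposite calls numbered 21 and 5. The calls of batch 2 were more numerous, and 33.4% of its higher and 34.2% of its lower calls were also made in batch 1.

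The abundance pattern had the same form over each reference. The filter, the deciles and the normalisation were shared, so this likeness is no separate support. Over Pre-IP the share called went from 9.51% in the dimmest decile through 6.49% in the next to 41.9% in the brightest. Over Unbound these shares were 13.1%, 11.2% and 53.5%. More than 2-fold rises and falls numbered 209 and 21 over Pre-IP, and 252 and 41 over Unbound, in the dimmest decile. In the brightest decile they were 27 and 240 over Pre-IP and 45 and 322 over Unbound. As given above, rises in the dimmest decile are in part fixed by the filter. With both references combined, median centring turned the order of rises and falls in the brightest decile.

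**Figure D4:**
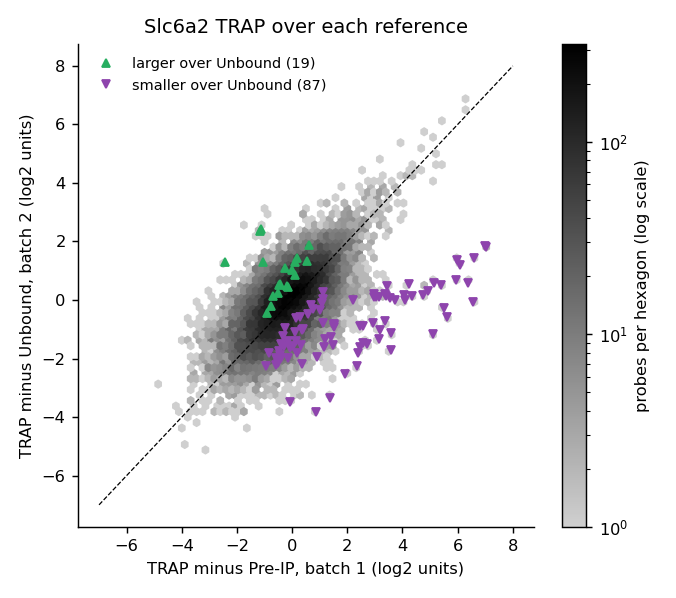
Slc6a2 TRAP minus Unbound (batch 2) against TRAP minus Pre-IP (batch 1), both in log2 units, for 24493 probes counted in hexagons on a log scale; green and purple triangles mark the 19 and 87 probes whose 2 differences differed by limma, and the dashed line is equality. Probes scatter widely about the line (r = 0.641), and a set of purple probes lies far to the right of it, high over Pre-IP and near 0 over Unbound.

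The difference over Unbound was tested against the difference over Pre-IP for each probe. Among 24493 probes, 106 (0.433%) were called, 19 (0.0776%) with a larger and 87 (0.355%) with a smaller value over Unbound. An unadjusted p under 0.05 was found for 3122. The median standard error of this contrast was 0.59. In simulated data where few probes differed and all others had no difference, the test recovered 2% of differences of 1 log2 unit and 16% of those of 2. These shares hold for that setting, and data with more changed probes were not simulated. Probes left uncalled may therefore still differ between the references. The change in most of the 106 called probes lay in TRAP. TRAP of batch 2 and batch 1 differed by a median of 2.18 log2 units in size among the 106, against 0.44 for Unbound and Pre-IP, and the TRAP change was the larger in 80 of 106. Over all probes the medians were 0.34 and 0.27. Of the 87 probes, 81 had all 4 TRAP arrays of batch 1 above all 4 of batch 2, as had 625 (2.55%) of all probes tested. This batch change is part of the contrast that chose the 87.

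The count of these probes was not firm. With the mouse as a block it was 29, of which 3 were above and 26 below 0, and it was 1136 when all 30 arrays shared 1 estimate of spread, with 591 above and 545 below. Leaving out 1 array moved it by more than 1.5 times in 10 of 15 cases. Without a TRAP array it was 67 (PBS female, batch 2), 62 (LPS male, batch 1), 55 (PBS male, batch 1) or 169 (LPS female, batch 1). Without an Unbound array it was 34 (PBS female), 35 (LPS female) or 52 (PBS male), and without a Pre-IP array 32 (PBS male), 27 (LPS female) or 36 (PBS female).

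ILMN_1218519 had the largest of these differences among probes detected on all 15 arrays. In TRAP of batch 1 its levels were 13.38, 13.22, 13.09 and 13.20 in the LPS male, PBS male, LPS female and PBS female. In TRAP of batch 2 they were 7.83, 7.80, 7.96 and 7.56 in the same order. The TRAP batches did not overlap, whereas total RNA was low throughout, from 6.55 to 7.24 in Pre-IP and 6.95 to 7.69 in Unbound. The probe was thus higher by 6.38 (SE 0.25) over Pre-IP and by 0.58 (SE 0.22, limma adjusted p = 0.070) over Unbound. The difference between these was -5.80 (SE 0.33, limma adjusted p = 6.3e-06). Normalised over 30 arrays, Slc6a4 TRAP had 11.98 to 12.11 in batch 1 (n = 3) and 7.20 to 7.96 in batch 2 (n = 4), the same split in other mice.

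ILMN_1245887 had TRAP levels of 12.71, 12.78, 12.81 and 12.34 in batch 1 and 7.71, 8.49, 7.40 and 6.97 in batch 2, in the same order of mice. Total RNA ran from 5.86 to 6.43. Its reference difference was -5.15 (SE 0.46, limma adjusted p = 3.8e-04), and Slc6a4 TRAP was likewise split, at 11.42 to 11.79 in batch 1 and 6.80 to 7.22 in batch 2.

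The 2 probes named in the other direction changed mainly in total RNA. ILMN_2900025 was at 10.33 to 10.97 (median 10.67) in TRAP, at 10.70, 10.90 and 10.68 in Pre-IP (PBS male, LPS female, PBS female) and at 9.81, 9.69, 9.56 and 9.87 in Unbound (PBS female, LPS female, PBS male, LPS male). All Unbound arrays were below all others. Its reference difference was 1.36 (SE 0.20, limma adjusted p = 0.010). ILMN_2762301 was at 7.91 to 9.50 (median 8.59) in TRAP, at 9.09, 9.38 and 9.66 in Pre-IP and at 8.34, 7.91, 7.28 and 7.92 in Unbound. Here TRAP overlapped both kinds of total RNA, and Pre-IP was above Unbound on every array. Its reference difference of 2.34 (SE 0.42, limma adjusted p = 0.038) passed the threshold by little, and with the mouse as a block neither probe passed it (adjusted p = 0.11 for ILMN_2900025 and 0.13 for ILMN_2762301).

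**Figure D5:**
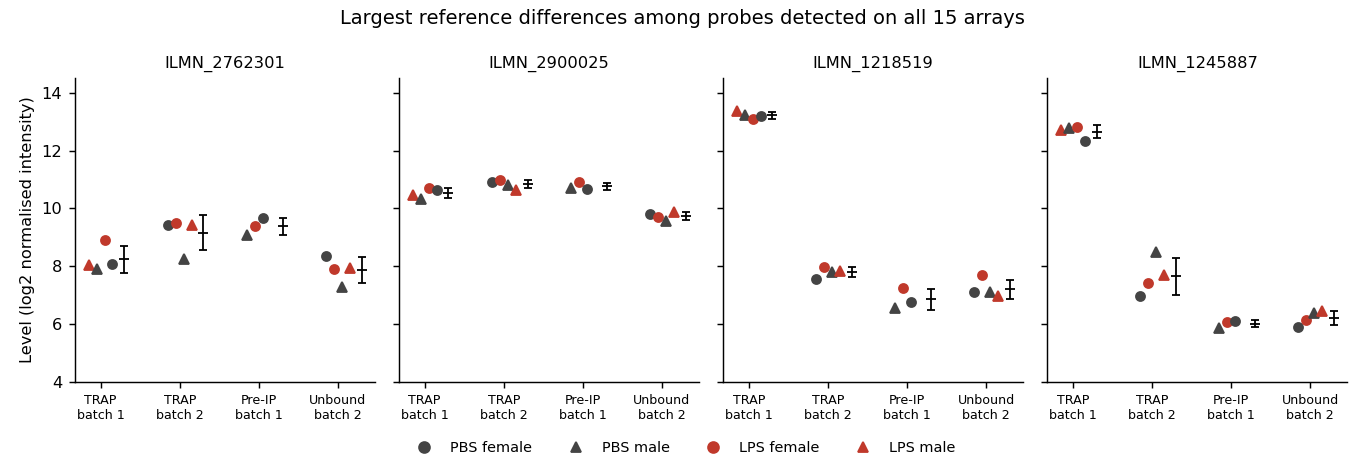
Level (log2 normalised intensity) on the 15 Slc6a2 arrays of 4 probes called for a difference between references; markers as for the named enriched probes (circles female, triangles male, black PBS, red LPS; bars are mean ± SD). ILMN_1218519 and ILMN_1245887 are high on the 4 TRAP arrays of batch 1 (12.34 to 13.38) and not on those of batch 2 (6.97 to 8.49), and ILMN_2900025 is lowest in Unbound.

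The same contrast in the Slc6a4 line, which shares no mouse with the Slc6a2 line but was amplified under the same batch numbers, moved alike. Of the 19 probes above 0, 17 were above 0 and 15 called there, where 6.61% of 24218 probes were called above 0. Of the 87 below 0, 79 could be tested, and 76 of them were below 0 and 51 called, where 3.21% of all probes were. The pattern in TRAP was shared too, since 56 of the 87 (64.4%) had all batch 1 TRAP arrays above all batch 2 arrays in the Slc6a4 line, against 5.48% of all probes.

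The 2 kinds of total RNA were also set directly against each other. None of 22842 probes detected on at least 3 total RNA arrays was called between Unbound and Pre-IP (limma, adjusted p under 0.05), and 3154 had an unadjusted p under 0.05. With 3 against 4 arrays this does not show that the kinds were alike. Probes more than 2-fold higher in Slc6a2 TRAP than in Slc6a4 TRAP, a set chosen without the total RNA arrays, were examined for a lower level in the lysate left after precipitation. Of 451 such probes, 379 were detected in total RNA. Their median Unbound minus Pre-IP was -0.042, with 54.1% below 0, against -0.029 and 53.1% over all probes. These probes were higher in TRAP than in total RNA by a median of 0.92, against -0.084 over all probes tested. The set was chosen on the same Slc6a2 TRAP arrays, so this rise is in part fixed by the choice. The opposite set, more than 2-fold lower in Slc6a2 TRAP, had a median Unbound minus Pre-IP of -0.15, with 62.8% below 0. Unbound and Pre-IP also differ in amplification batch, so a loss to the precipitation cannot be told apart from batch.

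Enrichment was tested against that of the serotonergic line to find what differed between them. Of 26312 probes in a fit of all 30 arrays, 919 (3.49%) had a higher TRAP minus total RNA difference in the Slc6a2 line and 996 (3.79%) a lower one, and a difference of more than 2-fold was reached by 478 and 617. In that fit 20.8% of all probes were called higher and 24.8% lower in Slc6a2 TRAP than in its total RNA, and 22.2% and 22.6% in the Slc6a4 line. The counts that follow describe how the difference between lines is made up, since it was built from these same values. Of the 919, 502 were called higher in Slc6a2 TRAP and 201 were called lower in TRAP in both lines, less so in the Slc6a2 line. Among the 502, 101 were called lower in the Slc6a4 line. Of the 996, 508 were called lower in Slc6a2 TRAP, and 152 of these 508 were called higher in the Slc6a4 line. The share of probes called for a difference between lines was 7.64% in the dimmest decile, 3.46% in decile 3 and 18.5% in the brightest. This test uses all 30 arrays, so the decile scale is not independent of it.

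ILMN_2776034 had the largest positive difference between lines among probes detected on all 30 arrays, 4.65 (SE 0.30, limma adjusted p = 3.0e-09). ILMN_3028637 followed with 4.24 (SE 0.25, adjusted p = 6.8e-10, limma). Its levels were 11.14 to 11.63 (median 11.44) in Slc6a2 TRAP and 6.43 to 8.50 (median 7.90) in Slc6a2 total RNA, and 7.37 ± 0.21 (SD, n = 7) in Slc6a4 TRAP. Slc6a2 TRAP alone stood above the rest, with no overlap.

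ILMN_2460179 had the largest negative difference between lines, -5.81 (SE 0.39, limma adjusted p = 4.3e-09). In Slc6a2 TRAP it was at 6.15 to 9.22 (median 7.58), against 8.95 to 10.17 (median 9.74) in Slc6a2 total RNA, and in Slc6a4 TRAP at 13.46 ± 0.033 (SD, n = 7). The PBS female of batch 2 gave the highest Slc6a2 TRAP value and overlapped total RNA, as no other TRAP array did. ILMN_2639849 was at 6.35 to 7.82 (median 7.00) in Slc6a2 TRAP, 9.46 to 10.14 (median 9.88) in Slc6a2 total RNA and 11.20 ± 0.12 (SD, n = 7) in Slc6a4 TRAP, without overlap. Its difference between lines was -4.10 (SE 0.21, limma adjusted p = 1.6e-10), made of a fall of -2.71 in the Slc6a2 line and a rise of 1.39 in the Slc6a4 line.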

How the data were processed

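The authors deposited 1 table that gives, for each probe on each array, an intensity and its detection p-value. The deposited intensity values were neither background-subtracted nor normalised between arrays, as judged from the file. The deposited detection p-value states how a probe ranks among the array's negative controls, also as judged from its steps. The submitters' processing notes name lumi, without version or role. How scans were read and beads summarised is not given in the sources used. No arrays held identical values (0 pairs).

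For the results above, the 15 arrays were corrected by normexp with the detection p-values, offset by 16, quantile normalised and log2-transformed (neqc steps of limma 3.58.1, R 4.3.3). Probes detected at p under 0.01 on at least 3 arrays were fitted with lmFit and eBayes with a trend. The model held 4 means (TRAP in batch 1, TRAP in batch 2, Pre-IP, Unbound) and sex and treatment terms within each fraction, with 8 coefficients and 7 residual degrees of freedom. Tests were two-sided with Benjamini-Hochberg adjustment at 0.05. The difference between lines used all 30 arrays (14 residual degrees of freedom). The number of arrays limits the precision. Named probes were the 2 largest each way among called probes detected on all arrays of the fit, and for TRAP against total RNA also called over each reference and of one sign in 7 mice. The comparison, the probe rule and the deciles were chosen with earlier results of these data known.

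The design text gives 4 males and 4 females per line, so TRAP and total RNA of one sex, treatment and batch were taken as the same animal. Deviations of such pairs from their cell means correlated at a mean of 0.056 (0.0092 to 0.11, 7 pairs), and those of different mice at -0.021 (18 pairs). The pairing rests on the design, not on these values, and the mouse as a block is the alternative fit. The fits were tested on simulated data of the measured spread. Alternatives in scaling, background, offset, filter, weights, model and arrays are described in the closing section.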

Additional observations from a re-analysis of the deposited data

Results flagged for a closer look

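Differences of TRAP from total RNA differed between the lines for 1915 probes and between the references for 106 probes, by the interaction tests given above. Of the single probes, ILMN_2776034 (4.65), ILMN_3028637 (4.24), ILMN_2460179 (-5.81) and ILMN_2639849 (-4.10) had a larger or smaller TRAP minus total RNA difference in the Slc6a2 than in the Slc6a4 line. Between Unbound and Pre-IP, the enrichment of ILMN_2762301 (2.34), ILMN_2900025 (1.36), ILMN_1218519 (-5.80) and ILMN_1245887 (-5.15) differed.

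The search for 1 value far from the others covered levels of the named probes, array summaries and summaries of the mice. Of 45 sets, 4 held such a value, all in named probes, where chance marks about 1 set in 20. ILMN_2776034 was lowest among the Slc6a2 TRAP arrays in the PBS male of batch 1, at 12.08 in the normalisation of 15 arrays and 12.10 in that of 30 arrays, which are the same array. In Slc6a4 Pre-IP, ILMN_2460179 was highest in the PBS male (10.45) and ILMN_2639849 lowest in the LPS male (9.90).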

How the results depend on the processing

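Across 27 results, 193 of 234 values under other settings kept their direction and their side of the threshold or stayed within 1.5 times or 1 SD, 38 moved, 3 lost the call and 0 reversed a called direction. Each probe named for enrichment or for the difference between lines, ILMN_2776034 being named for both, kept its call under all alternatives run. With the fractions normalised separately, lower calls were 8108 over both references, 4255 over Pre-IP and 5303 over Unbound, and the decile medians -0.093 (dimmest) and -0.029 (brightest). With median centring, 4887 probes were higher over Unbound, the reference difference had 188 calls, the decile medians were 0.33 and 0.37, and the brightest decile held 249 rises and 128 falls beyond 2-fold. Without background correction the dimmest median was 0.12. Without the filter, the reference difference had 50 calls, the decile medians were 0.038 and -0.14, and the brightest decile of 45281 probes held 2441 calls, with 96 rises and 548 falls beyond 2-fold. On probes detected on all 15 arrays, lower calls were 2546 over both references and 1907 over Unbound, the reference difference had 200 calls, and in an alternative added after seeing the data the decile medians were 0.84 and -0.069, with 770 calls, 1 rise and 119 falls beyond 2-fold in the brightest. These last counts come from fewer probes tested. With deciles formed on the 15 arrays, the medians were -0.26 and 0.050, with 79 rises and 139 falls. Fitting 30 arrays together gave 3328 higher and 4115 lower calls over Pre-IP, 4686 and 4805 over Unbound, 1136 for the reference difference and 3 for treatment. Sex and treatment terms shared by the fractions gave 243 calls for the reference difference. The mouse as a replicate block gave 29, lost ILMN_2762301 (2.25) and ILMN_2900025 (1.38), and moved no other count by over 1.5 times. Without the filter ILMN_2762301 (2.34, adjusted p = 0.064 by limma) was also lost.

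Leaving out 1 array at a time, lower calls ran from 3154 to 5081 over both references, higher calls from 701 to 2146 and lower calls from 622 to 2688 over Pre-IP, higher calls from 2007 to 3327 and lower calls from 1850 to 3464 over Unbound, reference difference calls from 27 to 169, and the dimmest decile median from 0.25 to 0.33. ILMN_2762301 lost its call without any of 12 of the 15 arrays, and ILMN_2900025 without either of 2. The cause of these changes was not tested.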

Other observations

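Of 646 probes more than 2-fold lower in Slc6a2 TRAP than in Slc6a4 TRAP, 627 were detected in total RNA of the Slc6a2 line. Their median TRAP minus total RNA difference was -0.84 in that line, against -0.084 over all probes tested. The set was chosen on the same Slc6a2 TRAP arrays, so this fall is in part fixed by the choice. Unbound lay below Pre-IP for 394 of the 627 (62.8%), with a median of -0.15, against 53.1% and -0.029 over all 22842 probes detected in total RNA, and none of them was called (limma).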
